A study of Mus musculus with 27 samples.

Results

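The comparison described here set 3 arrays of TAMH cells dosed with acetaminophen (APAP) for 6 h against 3 arrays of TAMH cells given control culture medium for 6 h. The arrays were chosen by their titles alone, and they are 6 of the 27 arrays in the series. TAMH is an established mouse hepatocyte line, known for having been derived from the liver of a mouse with a transforming growth factor alpha transgene. It is therefore a single line and not primary liver tissue. All cells, controls included, were confluent when dosed and were kept without serum in a medium with dexamethasone, nicotinamide, insulin, transferrin and selenium, at passages between 25 and 35. APAP was dosed at 2 mM, its regioisomer AMAP at 2 mM was the other treatment, and 2, 6 and 24 h were the times sampled, with 3 arrays in each of 9 groups. The arrays of a group carried the numbers 30, 31 and 32, and values below are given in that order. The labels do not say that the 3 arrays of a group came from separate cultures. The p-values therefore measure the spread between arrays within groups, which may be technical in part. That spread was estimated over all 27 arrays in 9 groups, and not from the 6 arrays alone.

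APAP is a common analgesic whose overdose injures the liver. It is known for being oxidised by cytochrome P450 enzymes, Cyp2e1 among them, to a reactive quinone imine that glutathione traps and that binds proteins when glutathione runs out. AMAP differs from APAP in the position of the hydroxyl group on the ring and is used as a comparator that injures mouse liver less. The title of the study names mitogen-activated protein (MAP) kinases, which pass signals from stress and growth factors to transcription factors such as the AP-1 subunits. Cell stress of this kind is known to act on transcription through p53, which induces genes for arrest, repair and death, and through Atf4, which induces genes of the integrated stress response. Cells that divide express the genes of mitosis in late cycle and the replication-dependent histone genes in S phase.

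The values are log2 expression per probe set on an Affymetrix Mouse Gene 1.0 ST array, and 19938 genes were tested. A gene was called when limma's Benjamini-Hochberg adjusted p over all 19938 genes was under 0.05, and each change is the APAP mean minus the control mean on the log2 scale, with its standard error (SE). The medians of the 6 arrays lay between 7.258 and 7.332, and arrays of a group correlated at 0.995 to 0.997 over all genes. The 3 arrays at 6 h numbered 32 stood apart from the rest on the leading principal component, at 15.48 (APAP), 16.1 (AMAP) and 10.72 (control), against −13.92 to −4.23 for those numbered 30 and 31. The APAP arrays were separated from the control arrays on the next component, at 8.67 to 12.47 in APAP and −12.53 to −9.39 in control. Counts below are therefore also given without the arrays of each number, and these smaller fits leave out that number in all 9 groups.

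At 6 h, 498 of 19938 genes were called between APAP and control (2.50%), of which 210 were higher (1.05%) and 288 were lower (1.44%) with APAP. Before adjustment, 2444 of the 19938 genes had a limma p under 0.05. Counts of list members at an unadjusted p below are to be set beside that share. The changes were small: the median was 0.43 among the called genes that rose and −0.44 among those that fell, with 10 genes at least 2-fold higher and 9 at least 2-fold lower. The 3 APAP arrays lay wholly on one side of the 3 control arrays for 493 of the 498 genes; over all genes tested, 7.71% had APAP wholly above control and 8.58% had APAP wholly below. The number of calls was sensitive to which arrays were used. It was 265 without the control array numbered 31, 286 without the APAP array numbered 31, 295 without the control array numbered 30 and 316 without the APAP array numbered 32. Without every array numbered 30, 31 or 32 it was 65, 134 and 212. With the 6 arrays of APAP and control at 6 h alone it was 229. Fitted with a term for the array number (the replicate block), it was 664 over all arrays and 753 within the 9 arrays at 6 h.

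The largest rise was that of Atf3, a stress-induced transcription factor of the ATF/CREB family. Atf3 had 10.54, 10.69 and 11.21 in the APAP arrays, against 8.78, 8.65 and 9.10 in the control arrays, so that the groups were far apart. The change was 1.97 ± 0.24 (SE), a 3.91-fold rise, with an adjusted p of 2.33e-05. Next came Arrdc3, an alpha-arrestin that helps remove receptors from the cell surface, with 9.51, 9.37 and 10.16 in APAP and 8.22, 8.34 and 8.39 in control. It rose by 1.36 ± 0.19, 2.58-fold (adjusted p = 8.91e-05). Mybl1, which encodes the transcription factor A-Myb, had 9.00, 8.99 and 9.01 in APAP and 7.81, 7.79 and 7.59 in control, and rose 2.41-fold with almost no spread among the APAP arrays (adjusted p = 1.57e-06).

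Several other genes at the head of the rises encode proteins of varied roles. Strip2, a component of striatin phosphatase and kinase complexes, had 7.60, 7.31 and 7.78 in APAP against 6.45, 6.40 and 6.41 in control, and its rise of 1.14 ± 0.10 had the smallest adjusted p of all genes, 6.4e-07. Pm20d1, a secreted enzyme that joins fatty acids to amino acids, rose by 1.05 ± 0.10, and Slc4a11, a membrane transporter, rose by 1.05 ± 0.14. Ddias, named for suppressing apoptosis after DNA damage, rose by 0.99 ± 0.14. Plod2, which hydroxylates lysines of collagen, rose by 0.83 ± 0.12. Chchd7, a small mitochondrial protein, and Caprin2 and Nanos1, which bind RNA, rose by 0.83 ± 0.11, 0.84 ± 0.10 and 0.82 ± 0.12. For all of these the APAP and control arrays did not overlap, which the rule for naming the largest rises required.

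**Figure D1:**
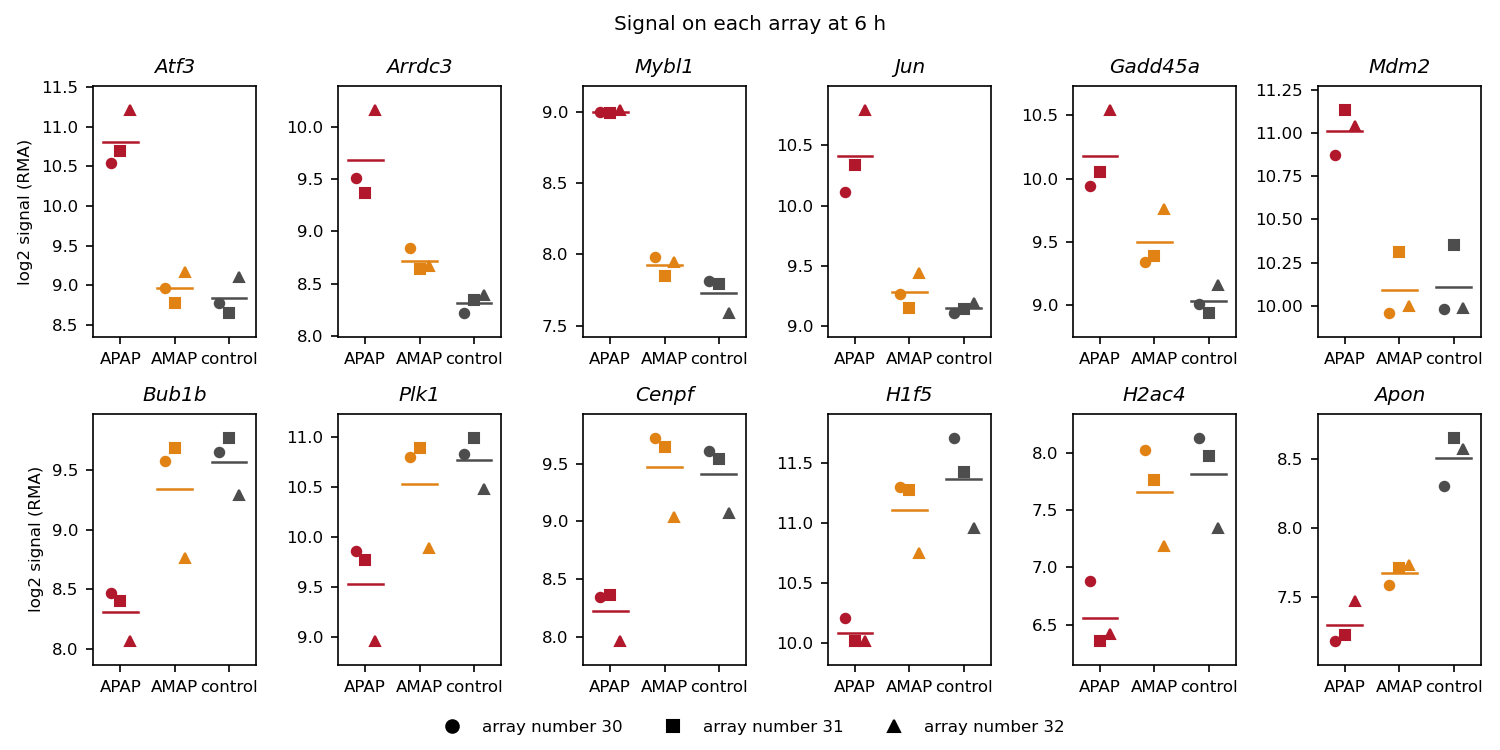
Log2 expression of 12 genes in each array at 6 h, with APAP left, AMAP in the middle and control right in each panel; points are single arrays, their shape gives the array number, and the bar is the mean of 3. Atf3, Arrdc3, Mybl1, Jun, Gadd45a and Mdm2 (top) lie higher in all 3 APAP arrays than in all 3 control arrays, and Bub1b, Plk1, Cenpf, H1f5, H2ac4 and Apon (bottom) lie lower.

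Targets of p53 rose as a group. Of 30 measured genes on the list, 15 were called higher and none lower, against 1.05% of all genes called higher, and 29 of the 30 differences were above 0, with a median of 0.42 beside 0.001 over all genes. This and the other gene lists were chosen with earlier results of these data known, so their counts are descriptive and not independent support. By role, 7 of 10 death genes, 3 of 6 regulators that feed back on p53, 3 of 7 arrest genes and 2 of 7 genes of repair and metabolism were called. Trp53 itself, Cdkn1a, Bax and Gdf15 were not analysed here. The count of 15 was 12 to 15 without any single array, and 6, 13 and 5 without every array numbered 30, 31 or 32.

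Among the regulators, Mdm2, the ubiquitin ligase that degrades p53, had 10.87, 11.13 and 11.04 in APAP against 9.98, 10.35 and 9.99 in control. All APAP values were above all control values, and the rise of 0.91 ± 0.14 was 1.88-fold (adjusted p = 0.000299). Trp53inp1, a nuclear partner of p53, rose by 0.81 ± 0.13 to 11.35, 11.34 and 11.62 in APAP, against 10.54, 10.74 and 10.61 in control. Ccng1, which encodes cyclin G1 and recruits a phosphatase to Mdm2, rose by 0.63 ± 0.12, with an adjusted p of 0.0553 from the 6 arrays alone and 0.0587 from the 9 arrays at 6 h. Zmat3, an RNA-binding zinc finger protein, differed by 0.41 ± 0.12 and was not called (adjusted p = 0.0556), but was called with the replicate number as a block (adjusted p = 0.0211).

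The death genes were represented by receptors and by mitochondrial factors. Fas, the death receptor, had 9.49, 9.44 and 9.44 in APAP against 8.61, 8.62 and 8.70 in control, a rise of 0.82 ± 0.10 (adjusted p = 2.38e-05). Tnfrsf10b, the mouse TRAIL receptor, rose by 0.42 ± 0.08, with an adjusted p of 0.0811 from the 6 arrays alone and 0.0644 from the 9 arrays at 6 h. Pmaip1 and Bbc3 encode Noxa and Puma, the BH3-only proteins that oppose survival members of the BCL2 family, and they rose by 0.74 ± 0.10 and 0.43 ± 0.08. Pidd1, the scaffold that activates caspase 2, rose by 0.61 ± 0.10. In the BCL2 family as a whole, 2 of 14 measured members rose, Pmaip1 and Bbc3, and 1 fell, against 1.05% and 1.44% of all genes. The member that fell, Bcl2l1, the survival factor Bcl-xL, was at 10.67, 10.80 and 10.62 in APAP and 11.03, 11.15 and 10.94 in control, a change of −0.35 ± 0.08 (adjusted p = 0.0115, and up to 0.0907 without the APAP array numbered 30 or 32 or the control array numbered 31). Ei24, a further p53 target linked to death, differed by 0.26 ± 0.07 and was not called (adjusted p = 0.0526, or 0.0358 with the replicate block).

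Arrest and metabolic targets were led by Btg2, an antiproliferative protein that recruits the deadenylase to messenger RNA. Btg2 had 10.46, 10.44 and 10.65 in APAP against 9.51, 9.62 and 9.42 in control, and rose by 1.00 ± 0.12 (adjusted p = 2.33e-05). Its relative Tob1 rose by 0.43 ± 0.08, while the other two measured members of that family were not called, Btg1 among them at 0.21. Sesn2, a sestrin that restrains mTORC1 and is induced by both p53 and Atf4, rose by 0.98 ± 0.16. Plk2, a polo-like kinase, had 11.52, 11.46 and 12.04 in APAP against 10.76, 10.79 and 10.79 in control and rose by 0.89 ± 0.20, with an adjusted p of 0.0144 that reached 0.107 without the APAP array numbered 32 or the control array numbered 30 or 31. Phlda3, which blocks Akt at the membrane, differed by 0.62 ± 0.19 and was not called (adjusted p = 0.0841, or 0.045 with the replicate block). The 4 called members outside the naming rule, named after their values were seen, were the apoptosome scaffold Apaf1, the desmosomal protein Perp, the translesion polymerase Polk and the repair nuclease Ercc5, which rose by 0.47, 0.38, 0.72 and 0.52. Of these, Ercc5 kept its call without any single array, with an adjusted p of 0.0546 from the 9 arrays at 6 h; Apaf1, Perp and Polk had adjusted p up to 0.103, 0.0663 and 0.0716 without the control array numbered 32 or, for Apaf1 and Perp, some APAP arrays (30 or 31 for Apaf1, 31 or 32 for Perp).

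**Figure D2:**
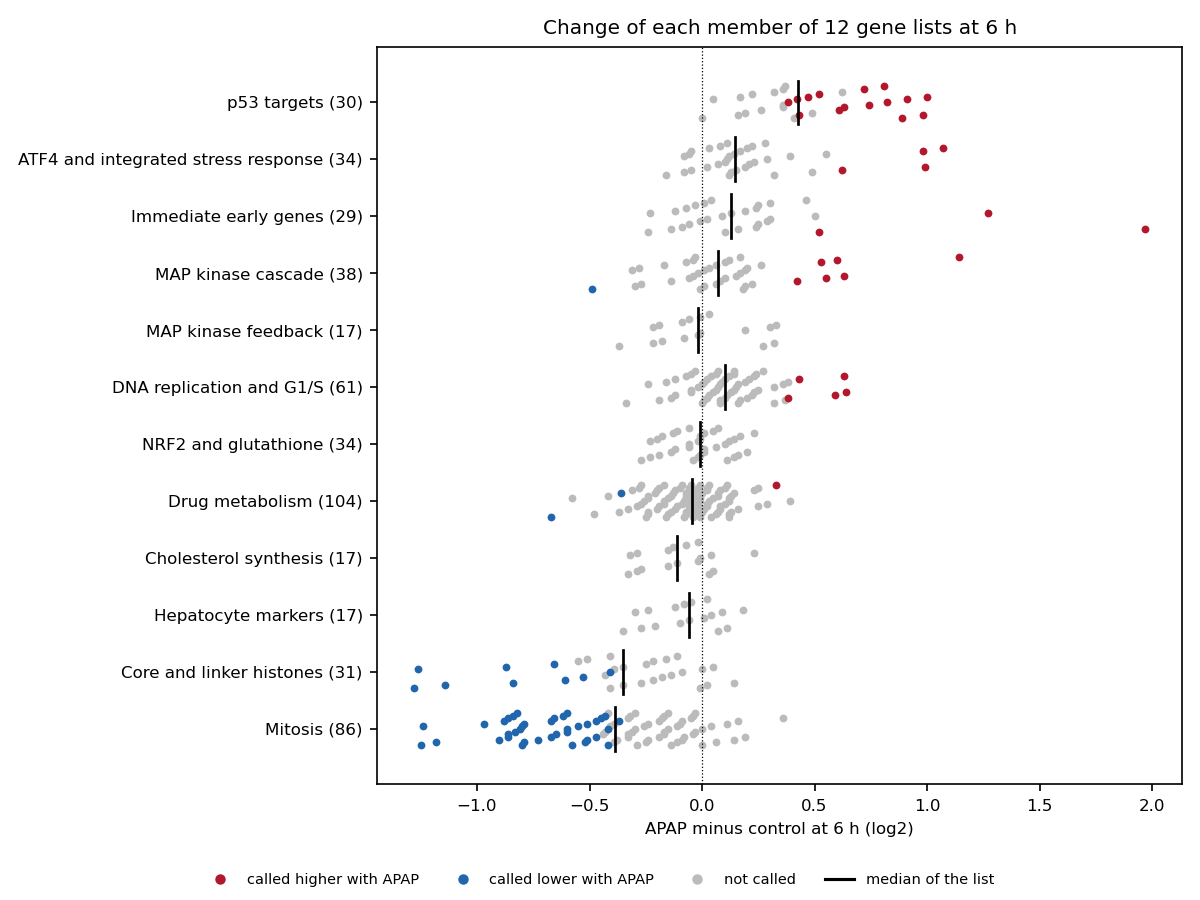
Change per gene (APAP minus control at 6 h, log2) for the measured members of 12 gene lists; red points are genes called higher, blue points genes called lower, grey points genes not called, and the line in each row is the list median. The p53 targets lie mostly right of 0 (median 0.42, 15 called higher) and the mitosis and histone genes mostly left of 0 (medians −0.38 and −0.35, 38 and 9 called lower), while the medians of the other 9 lists lie between −0.11 and 0.15.

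The integrated stress response was represented by a few strong changes. Of 34 measured genes on the Atf4 list, 4 were called higher and none lower, against 1.05% of all genes called higher. The list median was 0.15 beside 0.001 over all genes. Ddit3, which encodes the transcription factor CHOP, had 9.39, 9.53 and 9.55 in APAP against 8.41, 8.44 and 8.41 in control, and rose by 1.07 ± 0.17 (adjusted p = 0.000399). Ppp1r15a, which encodes the phosphatase subunit GADD34 that reverses eIF2 alpha phosphorylation, had 8.70, 8.51 and 9.14 in APAP against 7.75, 7.89 and 7.73 in control, and rose by 0.99 ± 0.19. The others were Sesn2 and Mthfd2, the mitochondrial one-carbon enzyme, which rose by 0.62 ± 0.12. Their calls held without any single array, and 3, 1 and 3 of the 4 were called without every array numbered 30, 31 or 32.

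Other members of the Atf4 list were not called. Atf4 itself differed by 0.21 ± 0.11 (adjusted p = 0.498) and Asns, asparagine synthetase, by 0.19 ± 0.16. Trib3, a pseudokinase, was at 9.35, 9.24 and 9.50 in APAP and 8.65, 8.89 and 8.90 in control, groups that did not overlap, with a difference of 0.55 ± 0.20 (adjusted p = 0.202, or 0.025 with the replicate block). Chac1, which degrades glutathione, differed by 0.49 ± 0.14 (adjusted p = 0.0639, or 0.00761 with the block), and the whole list had 6 calls with the block. Of 19 chaperones of the endoplasmic reticulum, 1 was called, against 2.50% of all genes called either way. That gene, Dnajb9, was at 9.32, 9.08 and 9.43 in APAP and 8.77, 8.84 and 8.77 in control, a rise of 0.49 ± 0.11 (adjusted p = 0.0145, and up to 0.0961 without an array numbered 30 or 32 of either group). Hspa5, the chaperone BiP, differed by 0.17 ± 0.07 and was not called.

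The promoter of Ppp1r15a held the letters TGACGTCA, the cyclic AMP response element to which ATF/CREB factors are known to bind. RefSeq windows of the GRCm38.p6 build run from 250 bases before to 50 after a start, and 507 of the 27025 genes with a window hold TGACGTCA on either strand (1.88%); among the 4 called Atf4 list genes, all with a window, Ppp1r15a was the 1 that held it. The stretch from 100 bases before to 50 after its start, chr7:45526219-45526368 on the minus strand, is shown with the motif in capitals. No called member held TTGCATCA, the composite element known for Atf4 with C/EBP partners, which 4 of 29 list windows (13.8%) and 0.929% of all windows held. Other forms of the element and sequence outside the windows were not searched. The absence of these letters therefore does not show that a gene lacks an Atf4 site.
Ppp1r15a: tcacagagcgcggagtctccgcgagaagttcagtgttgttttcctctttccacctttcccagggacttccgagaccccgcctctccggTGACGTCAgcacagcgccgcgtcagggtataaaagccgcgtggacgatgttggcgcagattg

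Early genes downstream of the MAP kinases changed in part. Against 1.05% of all genes called higher, 3 of 29 measured immediate early genes were called higher and none lower, with a median of 0.13. Besides Atf3 these were Jun, an AP-1 subunit that MAP kinases of the JNK family phosphorylate, and Ier5. Jun had 10.11, 10.34 and 10.79 in APAP against 9.11, 9.14 and 9.19 in control, and rose by 1.27 ± 0.21, 2.41-fold (adjusted p = 0.001). Ier5 had 10.50, 10.12 and 10.72 in APAP against 9.76, 9.97 and 10.03 in control; its rise of 0.52 ± 0.13 had an adjusted p of 0.0211, and of up to 0.148 without an array numbered 30 of either group, the APAP array numbered 32 or the control array numbered 31. Fos, the partner of Jun in AP-1, differed by 0.25 ± 0.12 and Myc by −0.12 ± 0.16, and neither was called. Egr1, a zinc finger factor induced through ERK, was at 8.34, 8.28 and 8.62 in APAP and 8.01, 7.63 and 8.10 in control, a difference of 0.50 ± 0.16 (adjusted p = 0.0971). Klf4, also of this list, differed by 0.46 ± 0.13 (adjusted p = 0.0599, or 0.0229 with the replicate block).

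In the MAP kinase cascade, 6 of 38 measured genes were called higher and 1 lower, against 1.05% and 1.44% of all genes. The list median was 0.07. By tier, 0 of 9 MAP kinases (differences from −0.28 to 0.20) and 0 of 13 MAP3K and Raf genes passed by limma, with 3 and 5 at an unadjusted p under 0.05. Among all 19938 genes, 2444 were at such a p. Mapk8 and Mapk9, which encode JNK1 and JNK2, differed by 0.19 ± 0.08 and 0.20 ± 0.08, and Mapk14, the p38 alpha gene, by 0.08 ± 0.09. These are transcript levels and not kinase activities. The 7 called genes were 3 of 3 Gadd45 genes, whose products activate MAP3K4, 3 of 7 downstream kinases and, as the 1 that fell, 1 of 6 MAP2K genes.

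All 3 Gadd45 genes, which encode stress-induced binders of MAP3K4, rose. Gadd45a had 9.94, 10.05 and 10.54 in APAP against 9.01, 8.94 and 9.16 in control and rose by 1.14 ± 0.18 (adjusted p = 0.000462). Gadd45b had 10.41, 10.40 and 11.15 in APAP against 9.92, 9.99 and 10.13 in control and rose by 0.63 ± 0.16 (adjusted p = 0.0341). Gadd45b lost its call without the APAP array numbered 32 or without any 1 control array, with an adjusted p of up to 0.254, and over the fits without a single array its change ranged from 0.39 to 0.76. Gadd45g rose by 0.53 ± 0.12 (adjusted p = 0.00991, and up to 0.0727 without the APAP array numbered 32 or the control array numbered 30 or 32).

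Of 7 downstream kinases, 3 rose. Rps6ka5, which encodes the histone kinase MSK1, had 6.88, 6.79 and 6.70 in APAP against 6.28, 6.04 and 6.24 in control, a rise of 0.60 ± 0.09 (adjusted p = 0.000155). Mknk2, which phosphorylates the cap-binding factor eIF4E, rose by 0.42 ± 0.09, with 10.27, 10.25 and 10.26 in APAP against 9.77, 9.91 and 9.85 in control. Mapkapk3, a kinase activated by p38, had 7.31, 6.88 and 6.78 in APAP against 6.42, 6.64 and 6.28 in control and rose by 0.55 ± 0.12 (adjusted p = 0.0113, and up to 0.11 without the APAP array numbered 30 or the control array numbered 32). The gene that fell was Map2k6, the MAP2K that activates p38, with 8.82, 8.79 and 8.60 in APAP against 9.36, 9.24 and 9.08 in control, a change of −0.49 ± 0.10 (adjusted p = 0.0069, and up to 0.0567 without the APAP array numbered 32 or the control array numbered 30). None of the 17 feedback genes was called by limma (5 at an unadjusted p under 0.05), Dusp1 among them at 0.30 ± 0.18. None of 13 genes of the EGF receptor system was called (2 at an unadjusted p under 0.05), with Egfr at −0.07 ± 0.09. For the whole cascade list the 7 calls became 4 without the control array numbered 30, and 2, 5 and 4 without every array numbered 30, 31 or 32.

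Genes of mitosis, on a list also chosen with earlier results of these data known, fell as a group. Of 86 measured genes, 38 were called lower and none higher, against 1.44% of all genes called lower, and 78 of the 86 differences were below 0, with a median of −0.38 beside 0.001 over all genes. The called share differed by role: 10 of 12 kinesins, 12 of 16 genes of the spindle and cytokinesis, 6 of 12 cyclins, phosphatases and subunits of the anaphase-promoting complex, 4 of 12 kinases, 3 of 17 kinetochore and centromere genes, 3 of 12 genes of chromosome structure and none of 5 transcription factors. Fewer cells in mitosis and less RNA per cell cannot be told apart in such bulk samples. The count of 38 was 22 without the APAP array numbered 32, 22 without the control array numbered 31 and 25 without the control array numbered 30, and 7, 16 and 24 without every array numbered 30, 31 or 32.

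The kinases with the largest falls act in the spindle checkpoint and at mitotic entry. Bub1b, which encodes the checkpoint kinase BubR1, had 8.47, 8.40 and 8.07 in APAP against 9.65, 9.77 and 9.29 in control, a change of −1.25 ± 0.18, 2.38-fold lower (adjusted p = 0.000155). Plk1, the polo-like kinase that drives mitotic entry and exit, had 9.86, 9.77 and 8.96 in APAP against 10.83, 10.99 and 10.48 in control, a change of −1.24 ± 0.22 (adjusted p = 0.00191). The arrays numbered 32 were lowest for both genes in both groups. Aurka, the Aurora kinase of the centrosome, had 9.37, 9.25 and 8.65 in APAP against 10.09, 10.21 and 9.55 in control; its change of −0.86 ± 0.21 had an adjusted p of 0.025, and of up to 0.17 without the APAP array numbered 32 or the control array numbered 30 or 31. Nek2, a kinase that splits centrosomes and is named after its values were seen, changed by −0.80 ± 0.17 (adjusted p = 0.0088, and up to 0.0767 without the APAP array numbered 32 or the control array numbered 31).

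At the kinetochore, Cenpf, a large protein of the outer plate, had 8.35, 8.36 and 7.97 in APAP against 9.61, 9.54 and 9.07 in control, a change of −1.18 ± 0.17 (adjusted p = 0.000149). Cenpa, the centromeric histone H3 variant, changed by −0.73 ± 0.12. The third called member, Nuf2 of the microtubule-binding Ndc80 complex, named after its values were seen, changed by −0.43 ± 0.09. The 14 others of this set were not called, and the median of all 17 was −0.24.

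Of the 16 spindle and cytokinesis genes 12 fell. Aspm, which focuses spindle poles, had 8.45, 8.40 and 8.14 in APAP against 9.42, 9.32 and 9.15 in control, a change of −0.97 ± 0.14 (adjusted p = 0.000178). Tpx2, the activator of Aurora A on microtubules, changed by −0.83 ± 0.12, and Racgap1, Prc1, Ect2 and Anln, which build the central spindle and the cleavage furrow, by −0.79, −0.67, −0.65 and −0.60. Of the kinesins, Kif18a, which shortens chromosome-bound microtubules, changed by −0.86 ± 0.16. The 2 kinesins that were not called, named after their values were seen, were Kif15 at −0.08 ± 0.08 and Kif18b at −0.14 ± 0.17.

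Exit from mitosis runs through the anaphase-promoting complex. Its activator Cdc20 had 8.56, 8.57 and 8.29 in APAP against 9.39, 9.56 and 9.12 in control, a change of −0.88 ± 0.17 (adjusted p = 0.00323). Its ubiquitin-conjugating enzyme Ube2c had 8.63, 8.53 and 7.93 in APAP against 9.40, 9.39 and 9.00 in control, a change of −0.90 ± 0.17. Among genes of chromosome structure, the called members Cdca8, Mki67 and Ncapd2, named after their values were seen, changed by −0.51, −0.37 and −0.47, with adjusted p of 0.0449, 0.0306 and 0.0305. All 3 lost the call without the APAP array numbered 31 or 32 or the control array numbered 30 or 31, and Mki67 also without the control array numbered 32, with adjusted p up to 0.207, 0.165 and 0.173. The factors known to drive these genes were not called: Foxm1 differed by −0.44 ± 0.15 (adjusted p = 0.159) and Mybl2 by 0.14 ± 0.09. Over the fits without a single array, Foxm1 ranged from −0.56 to −0.31 and Mybl2 from 0.07 to 0.20. These are transcript levels, and a missed call does not show that the levels were equal. Cdk1, the mitotic cyclin-dependent kinase, differed by −0.33 ± 0.13 and was not called, and Ccnb1 was not analysed here. Outside the list, Cdkn3, a phosphatase that acts on Cdk1 and Cdk2, changed by −0.92 ± 0.18 (adjusted p = 0.00547, and 0.0506 without the control array numbered 30).

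**Figure D3:**
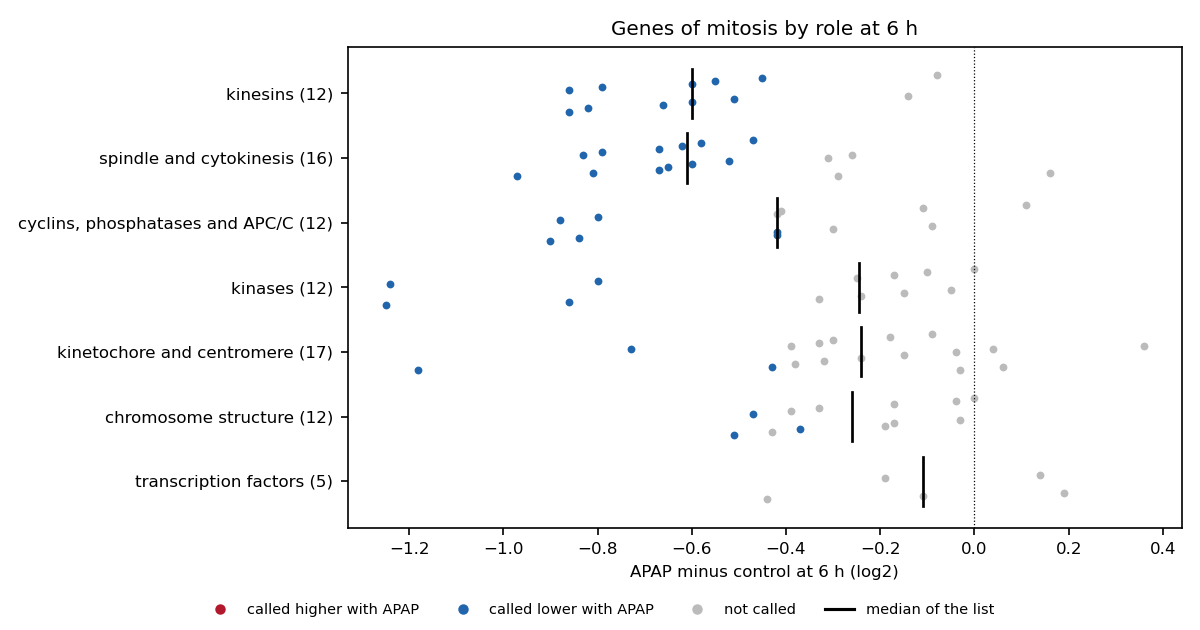
Change per gene (APAP minus control at 6 h, log2) for 86 measured mitosis genes, split by role; blue points are genes called lower, grey points genes not called, and the line in each row is the median. Kinesins (10 of 12 called) and spindle and cytokinesis genes (12 of 16) lie furthest below 0 as sets, while the 17 kinetochore and centromere genes have a median of −0.24 and 3 of them were called.

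The promoters of the mitosis genes shared sequence that the list did not use. The windows were searched on both strands for TTTGAA, the core of the cell cycle genes homology region (CHR), and for CCAAT; neither motif contains the other. Of 71 mitosis genes with a window, 48 (67.6%) held TTTGAA and 39 (54.9%) held both, against 18.1% and 7.12% of all 27025 windows. Among the 36 called genes with a window, 28 (77.8%) held TTTGAA and 25 (69.4%) held both, and among the 35 that were not called the numbers were 20 (57.1%) and 14 (40.0%). These are matches of letters and not sites of binding, and whether the motifs bear on the calls was not tested. The 6 windows below, 100 bases before to 50 after the start, were picked among called genes because each holds TTTGAA, with each motif in capitals. The CHR core appears as TTTGAA or, on the other strand, as TTCAAA. The CCAAT box on the other strand appears as ATTGG. They lie at chr2:118598111-118598260 on the plus strand (Bub1b), chr7:122159335-122159484 on the plus strand (Plk1), chr1:189688037-189688186 on the minus strand (Cenpf), chr2:164769829-164769978 on the plus strand (Ube2c), chr4:118437294-118437443 on the minus strand (Cdc20) and chr2:172370521-172370670 on the minus strand (Aurka).
Bub1b: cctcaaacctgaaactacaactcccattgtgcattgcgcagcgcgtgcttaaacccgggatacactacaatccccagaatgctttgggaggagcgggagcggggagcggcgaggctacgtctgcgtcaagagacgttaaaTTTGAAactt
Plk1: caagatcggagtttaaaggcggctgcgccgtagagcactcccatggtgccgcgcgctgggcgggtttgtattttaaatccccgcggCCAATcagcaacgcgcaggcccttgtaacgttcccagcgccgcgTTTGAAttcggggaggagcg
Cenpf: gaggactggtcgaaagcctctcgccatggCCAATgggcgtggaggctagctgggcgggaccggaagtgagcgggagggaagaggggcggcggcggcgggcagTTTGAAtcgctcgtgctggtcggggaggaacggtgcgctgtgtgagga
Ube2c: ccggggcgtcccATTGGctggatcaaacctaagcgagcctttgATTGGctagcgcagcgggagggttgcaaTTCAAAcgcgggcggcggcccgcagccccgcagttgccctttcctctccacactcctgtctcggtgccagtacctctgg
Cdc20: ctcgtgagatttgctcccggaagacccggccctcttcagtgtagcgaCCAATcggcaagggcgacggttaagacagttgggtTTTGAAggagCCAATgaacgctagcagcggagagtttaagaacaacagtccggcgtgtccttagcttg
Aurka: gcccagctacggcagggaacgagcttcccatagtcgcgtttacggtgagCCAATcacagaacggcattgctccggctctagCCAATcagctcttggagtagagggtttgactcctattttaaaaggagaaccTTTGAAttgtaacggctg
In 5 of the 6 the TTTGAA or TTCAAA copy stood with at least 1 CCAAT or ATTGG within the printed stretch, and in Bub1b it stood alone. Not all called genes had the motif there: the same stretch of Nek2, chr1:191821373-191821522 on the plus strand, held CCAAT without TTTGAA, as did that of Ncapd2, and those of Nuf2, chr1:169531415-169531564 on the minus strand, and of Kif18a held neither. Nek2 and Nuf2 are shown for contrast.
Nek2: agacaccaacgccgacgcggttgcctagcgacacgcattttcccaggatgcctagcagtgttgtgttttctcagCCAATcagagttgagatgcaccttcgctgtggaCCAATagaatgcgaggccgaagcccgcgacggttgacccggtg
Nuf2: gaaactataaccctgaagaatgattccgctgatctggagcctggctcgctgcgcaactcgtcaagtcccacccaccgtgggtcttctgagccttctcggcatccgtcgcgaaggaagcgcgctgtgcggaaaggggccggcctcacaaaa

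Histone genes fell too. Of 31 measured core and linker histone genes, 9 were called lower and none higher, against 1.44% of all genes called lower. The list median was −0.35. H1f5, a linker histone, had 10.21, 10.02 and 10.02 in APAP against 11.71, 11.43 and 10.96 in control, a change of −1.28 ± 0.18, 2.44-fold lower and the largest fall among the called genes (adjusted p = 0.000165). H2ac4, a core histone H2A gene, had 6.88, 6.36 and 6.42 in APAP against 8.13, 7.97 and 7.34 in control, a change of −1.26 ± 0.21. H2bc3 changed by −1.14 ± 0.18, H2ac15 by −0.87 ± 0.11 and H2bc14 by −0.84 ± 0.17. The other 4, H2ac8, H2bc1, H2bc18 and H4c14, changed by −0.66, −0.53, −0.61 and −0.41, and each lost its call without at least 4 of the 6 single arrays, with adjusted p up to 0.23, 0.134, 0.192 and 0.24.

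Histone genes come in near-identical copies, so that the probe sets may read more than the gene they name and the split between members is uncertain. The count of 9 was 5 without the APAP array numbered 31 or the control array numbered 30 or 31, and 4, 3 and 14 without every array numbered 30, 31 or 32. TTTGAA was held by 12 of 27 histone genes with a window (44.4%), and both motifs by 11 (40.7%), against 18.1% and 7.12% of all windows. CCAAT was held by 21 of the 27 (77.8%), by all 8 that were called and by 13 of 19 that were not (68.4%), against 37.9% of all windows. That of H2ac4, chr13:23750988-23751137 on the plus strand, is shown with CCAAT and its reverse complement ATTGG in capitals.
H2ac4: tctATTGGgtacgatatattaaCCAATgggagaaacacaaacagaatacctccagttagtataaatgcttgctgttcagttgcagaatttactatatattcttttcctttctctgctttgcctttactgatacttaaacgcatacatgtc

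Genes of the entry into S phase went the other way in a few cases. Of 61 measured genes of DNA replication and the G1 to S transition, 5 were called higher and none lower, against 1.05% of all genes called higher. The list median was 0.10. Ccne1, which encodes the cyclin E that activates Cdk2, had 10.30, 10.22 and 10.40 in APAP against 9.56, 9.73 and 9.84 in control and rose by 0.59 ± 0.12 (adjusted p = 0.00632). E2f1, the transcription factor of S phase genes, had 9.70, 9.73 and 9.67 in APAP against 9.16, 9.29 and 9.36 in control and rose by 0.43 ± 0.08. Slbp, which binds the stem-loop of histone messenger RNA, rose by 0.38 ± 0.07. Ccne2 and the G1 cyclin Ccnd2 rose by 0.63 ± 0.16 and 0.64 ± 0.15, with adjusted p of 0.0277 and 0.0145 that reached 0.129 without an array numbered 32 of either group, the APAP array numbered 30 or the control array numbered 31 (Ccne2) and 0.117 without the APAP array numbered 32 or the control array numbered 30 (Ccnd2).

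Of the members that act in replication itself, none of 17 origin licensing genes was called by limma (4 at an unadjusted p under 0.05), and Slbp was the 1 called among 25 genes of the fork and of nucleotide supply. Replication genes outside the list are not covered by these counts. Pcna, the sliding clamp, differed by 0.20 ± 0.09 (adjusted p = 0.307). Prim1, the primase subunit, differed by 0.32 ± 0.09, and E2f7, a repressor of the E2F family, by 0.36 ± 0.10, with adjusted p of 0.0533 and 0.0616 that were 0.0351 and 0.043 with the replicate block. The list had 8 calls with the block over all arrays and 10 with it within 6 h, 3 without the APAP array numbered 32, and 0, 1 and 2 without every array numbered 30, 31 or 32.

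Other large falls were of genes outside the mitosis and histone lists. Apon, an apolipoprotein gene, had 7.18, 7.22 and 7.47 in APAP against 8.30, 8.65 and 8.57 in control, a change of −1.22 ± 0.13, 2.33-fold lower (adjusted p = 4.57e-06). Spon2, a secreted matrix protein, changed by −1.12 ± 0.21 and Ms4a6b, a membrane protein of the MS4A family, by −1.07 ± 0.13. Emp1, an epithelial membrane protein, had 9.43, 9.26 and 9.47 in APAP against 10.45, 10.50 and 9.94 in control and changed by −0.91 ± 0.20 (adjusted p = 0.0088, and up to 0.0646 without the APAP array numbered 31 or the control array numbered 30 or 31). Prr11, Pif1 and Ccdc68 changed by −0.96, −0.86 and −0.89; Pif1 is a DNA helicase. For each of these the groups did not overlap, which the rule for naming the largest falls required.

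Single genes of other lists were called. Txnip, an alpha-arrestin that binds thioredoxin and limits glucose uptake, had 11.45, 11.63 and 11.38 in APAP against 10.41, 10.88 and 10.01 in control and rose by 1.05 ± 0.23 (adjusted p = 0.00991, and up to 0.0801 without the APAP array numbered 31 or the control array numbered 32). With Arrdc3 it made 2 of 6 alpha-arrestins called, against 1.05% of all genes called higher. Hexim1, which holds the elongation factor P-TEFb inactive, was the 1 called gene of 11 on the elongation list, against 2.50% of all genes. It had 10.74, 10.71 and 11.12 in APAP against 10.02, 10.35 and 10.18 in control, a rise of 0.67 ± 0.14 (adjusted p = 0.00783, and up to 0.0696 without the APAP array numbered 32 or the control array numbered 30). Srebf2, the regulator of sterol synthesis, Plin2, a lipid droplet coat protein, and Per2, a clock repressor, changed by −0.40, −0.50 and −0.37, with adjusted p of 0.0202, 0.0145 and 0.0204. These 3 calls were each lost without several single arrays, with adjusted p up to 0.158, 0.11 and 0.1: Srebf2 and Plin2 without the APAP array numbered 30 or 31 or the control array numbered 32, Plin2 also without the control array numbered 31, and Per2 without an array numbered 30 or 31 of either group.

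Genes of drug metabolism were read as a broad list, which is not limited to genes that handle APAP and its reactive product. Of 104 measured genes of drug metabolism, 1 was called higher and 2 lower, a share of the list close to the 2.50% of all genes, and 4 were called with the replicate block over all arrays. Tiparp, a target of the aryl hydrocarbon receptor, rose by 0.33 ± 0.09 (adjusted p = 0.0471, over 0.05 without the APAP array numbered 30 or 32 or any 1 control array, up to 0.275). Sult1c2, a sulfotransferase, changed by −0.67 ± 0.13, with an adjusted p of 0.00501, or 0.0513 without the APAP array numbered 31. Cyp2c23, a cytochrome P450, changed by −0.36 ± 0.09 (adjusted p = 0.0359, and up to 0.183 without any of 5 single arrays, the exception being the control array numbered 32). Cyp2e1 was at 5.30, 5.16 and 5.11 in APAP and 5.20, 5.39 and 5.35 in control, a difference of −0.12 ± 0.08, and the deposited values carry no detection call to say whether it was above background. Fmo1, a flavin monooxygenase, differed by −0.58 ± 0.18 (adjusted p = 0.0874, or 0.00148 with the replicate block).

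No gene of the NRF2 and glutathione list was called out of 34 measured, with a median of −0.01, by limma at the adjusted threshold, and 1 was at an unadjusted p under 0.05. Hmox1, heme oxygenase 1, differed by 0.16 ± 0.11, Srxn1, sulfiredoxin, by 0.10 ± 0.11 and Gss, glutathione synthetase, by 0.20 ± 0.08. The lists of the proteasome, the respiratory chain, mitochondrial ribosomal proteins and cholesterol synthesis likewise had no called member by limma, with 2 of 39, 4 of 81, 6 of 77 and 4 of 17 at an unadjusted p under 0.05 and medians of −0.04, 0.03, −0.02 and −0.11. Among all 19938 genes, 2444 were at such a p, and the median was 0.001. None of 17 heat shock genes was called or at an unadjusted p under 0.05. A p that misses the threshold does not show that the levels were equal.

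Markers of liver cells and of other cell types were looked at as whole lists, each averaged within an array. The 17 hepatocyte markers averaged 9.70 to 9.95 in the 3 APAP arrays and 9.88 to 10.01 in the 3 control arrays, and none was called by limma (2 at an unadjusted p under 0.05). The 6 biliary and progenitor markers averaged 8.67 to 8.86 in APAP and 8.88 to 9.02 in control, so that the APAP arrays lay wholly below the control arrays, with a median difference of −0.13. The 10 fibroblast and stellate markers averaged 7.76 to 7.79 in APAP and 7.77 to 7.86 in control, the 8 endothelial markers 6.02 to 6.15 in APAP and 5.94 to 6.10 in control, and the 10 macrophage and leukocyte markers 6.37 to 6.47 in APAP and 6.39 to 6.61 in control. None of the biliary, fibroblast or endothelial markers was called by limma or at an unadjusted p under 0.05. Levels of different probe sets are not comparable, so these averages do not say which cell type's genes were expressed. Of the 10 macrophage and leukocyte markers, 1 was called, against 2.50% of all genes. That marker, Cd14, the endotoxin coreceptor, had 10.65, 10.58 and 10.68 in APAP against 11, 11 and 11.10 in control, a change of −0.40 ± 0.08. Whether other cell types had a part in the results was not tested.

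AMAP allowed APAP to be set against its regioisomer at the same dose and time. This is 1 pair of compounds at 1 matched dose and time, and its 3 APAP arrays are those used above. The AMAP to control comparison shares its AMAP arrays with it and its control arrays with APAP against control. Between APAP and AMAP at 6 h 141 genes were called (0.707%), 95 higher (0.476%) and 46 lower (0.231%) with APAP, and 193 with the replicate block, or 224 with it within 6 h. Between AMAP and control, 91 genes were called (0.456%), 32 higher (0.160%) and 59 lower (0.296%). Without the APAP array numbered 30, 31 or 32 the APAP to AMAP count was 84, 92 and 70, and without every array numbered 30, 31 or 32 it was 18, 47 and 77.

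The p53 targets differed between the isomers. Of 30 measured, 17 were higher with APAP than with AMAP and none lower, with a median difference of 0.49, while none was called between AMAP and control, with a median of −0.01. Among all genes, 0.476% were called higher with APAP than with AMAP, and the median difference was −0.009. Mdm2 had 10.87, 11.13 and 11.04 with APAP, 9.96, 10.31 and 10.00 with AMAP and 9.98, 10.35 and 9.99 in control; APAP exceeded AMAP by 0.93 (adjusted p = 0.000609). Fas was 0.92 higher with APAP than with AMAP and Btg2 0.97 higher. For Fas the AMAP arrays were at 8.61, 8.41 and 8.58, against 8.61, 8.62 and 8.70 in control.

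The stress genes and other leading rises differed in the same direction. Atf3 had 10.54, 10.69 and 11.21 with APAP, 8.97, 8.77 and 9.17 with AMAP and 8.78, 8.65 and 9.10 in control, so that APAP exceeded AMAP by 1.84 (adjusted p = 0.000135). Jun was 1.13 higher with APAP than with AMAP, Slc4a11 1.28 higher, Txnip 1.18 higher and Mybl1 1.08 higher. Ptgs2, the inducible cyclooxygenase, had 8.46, 8.63 and 9.59 with APAP, 7.44, 7.30 and 8.09 with AMAP and 8.0, 7.91 and 8.61 in control: APAP exceeded AMAP by 1.28 (adjusted p = 0.00507), while neither isomer was called against control. Tnfsf18, a ligand of the tumour necrosis factor family, was 0.97 higher with APAP than with AMAP, and here AMAP was 0.81 below control (adjusted p = 0.02) while APAP differed from control by 0.16.

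Some mitosis and histone genes were lower with APAP than with AMAP. Of 86 mitosis genes 19 were called lower with APAP, with a median of −0.28, and none was called between AMAP and control (median −0.06). Of 31 histone genes 6 were called lower, and none was called between AMAP and control. Among all genes, 0.231% were called lower with APAP than with AMAP. Cenpf had 8.35, 8.36 and 7.97 with APAP, 9.72, 9.64 and 9.04 with AMAP and 9.61, 9.54 and 9.07 in control, a difference of −1.24 between the isomers (adjusted p = 0.000177). Bub1b, Plk1, Aspm and the GTPase-activating protein gene Arhgap19 differed by −1.03, −1.0, −0.93 and −0.90. H2ac4, H1f5 and H2bc3 differed by −1.11, −1.03 and −0.97. In DNA replication and G1/S, 8 of 61 genes were higher with APAP than with AMAP, against 0.476% of all genes. Ccne1 was higher by 0.69.

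Some genes that changed with APAP had levels close to those with AMAP. Hexim1 had 10.81, 10.88 and 10.97 with AMAP, and APAP minus AMAP was −0.03, with a 95% interval of −0.32 to 0.26. Ms4a6b had 6.57, 6.51 and 7.04 with AMAP and a difference of −0.01 (interval −0.28 to 0.26). Mknk2 differed by −0.02 (−0.20 to 0.16) and Cd14 by −0.06 (−0.22 to 0.10). All 4 were also called between AMAP and control, at 0.70, −1.05, 0.43 and −0.34. Strip2, Caprin2, Chchd7 and Apon lay between: APAP minus AMAP was 0.36 (0.14 to 0.57), 0.32 (0.12 to 0.51), 0.31 (0.08 to 0.53) and −0.38 (−0.66 to −0.11), with adjusted p of 0.149, 0.191, 0.35 and 0.344, and AMAP minus control was called at 0.78, 0.52, 0.52 and −0.83.

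**Figure D4:**
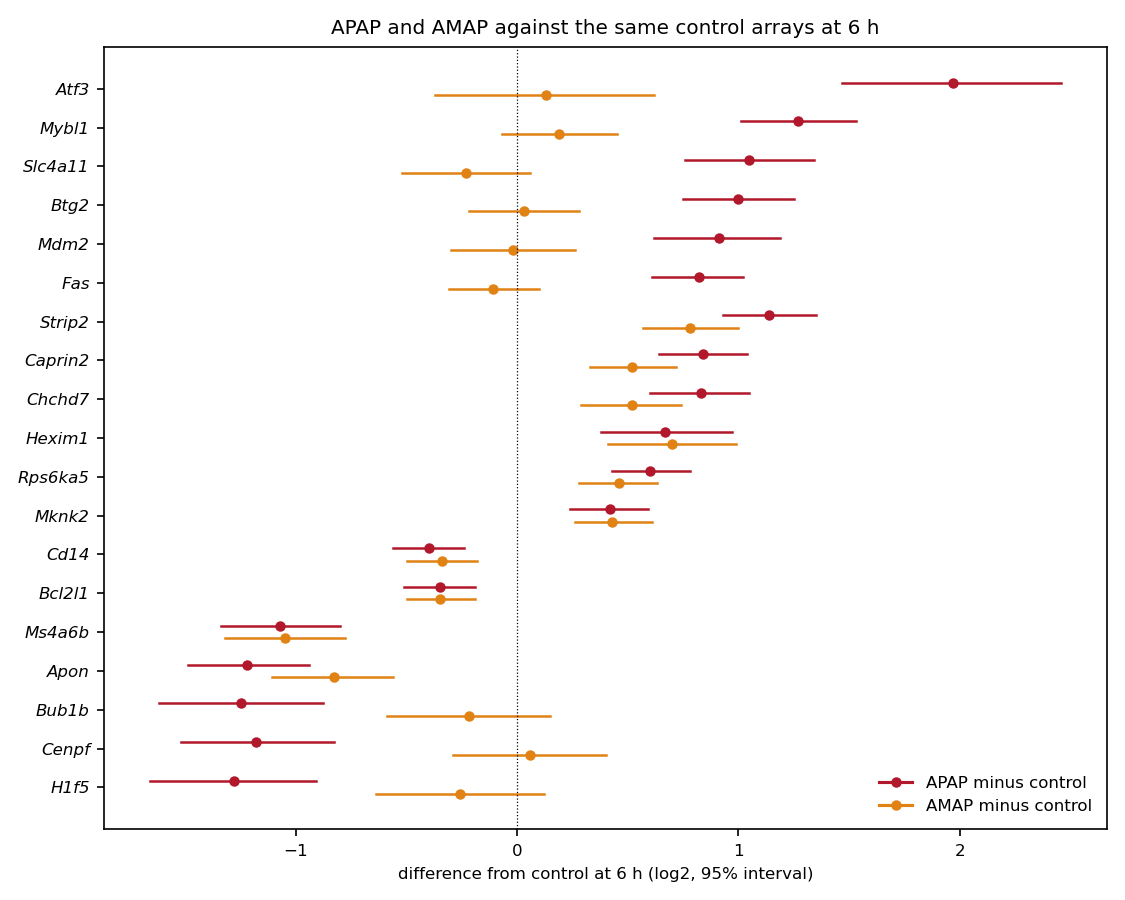
APAP minus control (red) and AMAP minus control (orange) at 6 h (log2) for 19 genes, points with 95% intervals from limma; both use the same control arrays. For Hexim1, Mknk2, Cd14, Bcl2l1 and Ms4a6b the APAP and AMAP points lie close together on the same side of 0, while for Atf3 (1.97 with APAP, 0.13 with AMAP) and Cenpf (−1.18 with APAP, 0.06 with AMAP) they lie apart and the AMAP interval spans 0.

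The 6 h comparison was also set beside APAP against control at 2 h and 24 h, which used other arrays, with 136 genes called at 2 h (0.682%; 62 higher, 0.311%, and 74 lower, 0.371%) and 1860 at 24 h (9.33%; 670 higher, 3.36%, and 1190 lower, 5.97%). Of the 210 genes higher at 6 h, 36 were also higher at 2 h (17.1% of the 210 and 58.1% of the 62 higher at 2 h) and 133 at 24 h (63.3%, and 19.9% of 670). Of the 288 lower at 6 h, 45 were lower at 2 h (15.6%, and 60.8% of 74) and 177 at 24 h (61.5%, and 14.9% of 1190). None was called in the opposite direction at another time. At 6 h but neither 2 h nor 24 h, 72 genes were called higher and 95 lower.

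Whether the effect at 6 h differed from that at another time was tested by the difference of the 2 effects. For 6 h minus 2 h, no gene passed (limma, 0 genes, against 680 whose p before adjustment was under 0.05). For 24 h minus 6 h, 2 genes passed (0.0100%), both with the larger effect at 24 h, against 1423 before adjustment. Ces2e, a carboxylesterase, had an effect of 0.04 at 6 h and 0.83 at 24 h, and Col12a1, a collagen gene, one of −0.03 at 6 h and 1.25 at 24 h. For every other gene the values over time are given side by side with no call of a difference. Atf3 was higher with APAP by 1.80, 1.97 and 2.00 at 2, 6 and 24 h. Mdm2 was higher by 0.70, 0.91 and 1.4, all called. Arrdc3 was higher by 0.19, 1.36 and 2.02, and was not called at 2 h; Fas was higher by 0.17, 0.82 and 0.79, likewise not called at 2 h.

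Other genes were called at 6 h without a call at 24 h, or at 2 h without a call at 6 h. Ccne1 differed by 0.14, 0.59 and −0.08 at 2, 6 and 24 h, and Mthfd2 by 0.32, 0.62 and −0.32, each called at 6 h alone. Egr1 was higher by 1.5, 0.50 and 0.52, called at 2 h (adjusted p = 1.99e-06) and 24 h but not at 6 h, and Fos by 0.81, 0.25 and 0.41 in the same pattern. Of the histone genes, H2ac4 changed by −2.50, −1.26 and −1.38 and H2bc14 by −1.72, −0.84 and −0.92, all called. Bub1b differed by −0.58, −1.25 and −1.04, and was not called at 2 h. By list, the p53 targets called higher numbered 7, 15 and 21 of 30 at 2, 6 and 24 h, the mitosis genes called lower 10, 38 and 22 of 86, and the histone genes called lower 18, 9 and 11 of 31. Over all genes, 0.311%, 1.05% and 3.36% were called higher and 0.371%, 1.44% and 5.97% lower at these times. Whether the list counts differed between times was not tested.

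**Figure D5:**
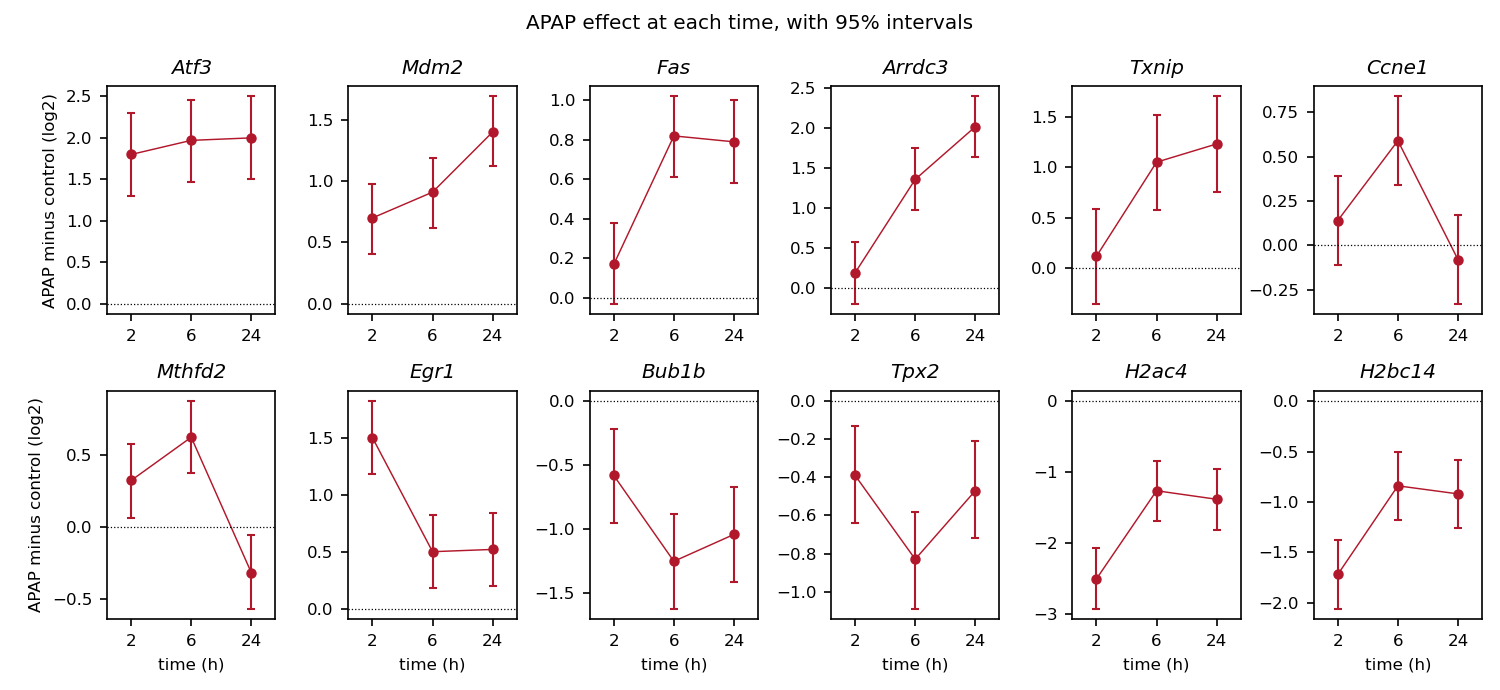
APAP minus control (log2) at 2, 6 and 24 h for 12 genes, points with 95% intervals from limma; the times are evenly spaced, not to scale. Atf3 lies between 1.80 and 2.00 at all 3 times, Ccne1 and Mthfd2 are called at 6 h alone, and H2ac4 and H2bc14 lie lowest at 2 h.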

How the data were processed

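The series holds 27 arrays of TAMH cells, in 9 groups of 3 by treatment and time. The deposited table holds log2 values per probe set, which the authors made with Affymetrix Expression Console 1.1 and RMA, per the submitters' processing notes; the log base was read from the values, and no detection calls were given. Depth has no meaning for arrays, and the number of arrays limits the precision. Of 35557 probe sets, 21789 had 1 gene symbol in the platform annotation, 1621 had several and 12147 had none and were left out. For 999 genes with several probe sets the one with the highest mean was kept, which left 19938 genes. Values were compared between arrays within a probe set or a fixed list, not between probe sets.

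One mean per group was fitted in limma (version 3.58.1, under R 4.3.3) on the 27 arrays together, which left 18 residual degrees of freedom, and contrasts were tested two-sided with Benjamini-Hochberg adjustment over all 19938 genes of a contrast. The script was tested on simulated data. This main fit did not pair arrays by their numbers, so its calls and p-values ignored any such pairing. Between APAP and control at 6 h, deviations from the group means correlated at 0.294, 0.19 and 0.401 for numbers 30, 31 and 32. Between APAP and AMAP they correlated at 0.254, 0.323 and 0.433. Between APAP and control they correlated at 0.319, 0.316 and 0.231 at 2 h, and at 0.084, −0.083 and 0.166 at 24 h. The fit with the number as a block was an alternative. Over all arrays, it took the effect of a number to be the same at all times. Other alternatives were fewer arrays, centring, quantile normalization, a level of at least 6, the mean of all probe sets, a trended robust prior, array weights and leaving out arrays.

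The 39 gene lists matched 1096 of 1145 entries and, like the genes named, were chosen with earlier results of these data known. Named genes were the 20 largest rises and 20 largest falls among called genes with groups that did not overlap and a level of at least 6, up to 10 called and 3 other members of each list by smallest p, a fixed panel, and the leading genes of the other contrasts; genes outside this rule are marked. Promoter windows are RefSeq's for GRCm38.p6, the first listed for each gene, for 185 of 233 named genes.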

Additional observations from a re-analysis of the deposited data

Results flagged for a closer look

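The effect of APAP differed between 24 h and 6 h for 2 genes in limma's test of the difference of the effects. For Ces2e, a carboxylesterase gene, the effect at 24 h exceeded that at 6 h by 0.78 on the log2 scale (adjusted p = 0.000364). For Col12a1, a collagen gene, it did so by 1.28 (adjusted p = 0.00073). Neither gene was called at 6 h.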

How the results depend on the processing

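The counts of calls moved with the arrays used and with the model. Between APAP and control at 6 h, 229 genes were called with the 6 arrays alone and 203 with the 9 arrays at 6 h, against 498 over all 27. The replicate block within 6 h called 753. Leaving out arrays gave 65 to 348. Between APAP and AMAP the 9 arrays at 6 h gave 46 calls, the replicate block within 6 h 224 and array weights 394, against 141, and leaving out arrays gave 18 to 153. For the effect at 6 h minus that at 2 h, 1 gene was called among genes with a mean of at least 6 and 1 with array weights, and 0 in every fit that left out arrays. For 24 h minus 6 h, 12 genes were called with the replicate block, 12 with quantile normalization, 6 each with centred arrays, a mean of at least 6 and a trended robust prior, and 13 with array weights, against 2, and leaving out arrays gave 0 to 4. Fewer arrays leave fewer residual degrees of freedom; for the other settings the cause was not tested. Besides the counts and genes given with it above, the replicate block over all arrays ended no call of a named gene, and within 6 h it ended those of Cyp2c23 and Tiparp. Of 92 named genes called, 28 were called under every setting tried. With the 9 arrays at 6 h 31 lost the call and with the 6 arrays 21, among them Ccng1, Tnfrsf10b, Aurka, Bcl2l1 and Gadd45b in both, and H2bc14 and Mknk2 with the 9 arrays (adjusted p = 0.0515 and 0.0587, limma). Without every array numbered 30, 31 or 32 the call was lost by 55, 38 and 33. Of the 92, 59 kept the call without each single array at 6 h, 33 lost it without at least 1, and 0 changed sign. Among genes that were not called, the difference of Tnfsf18 between APAP and control ranged from −0.14 to 0.32 over the fits without a single array and that of Ces2e from 0.00 to 0.08; the cause was not tested.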

Other observations

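Some gene groups not described above had no called member at 6 h. For comparison, the median over all 19938 genes was 0.001, and 2444 of them were at an unadjusted p under 0.05 by limma. Whether these groups differed from all genes was not tested. Of 32 genes of ribosome biogenesis, 28 were lower with APAP than in control, with a median of −0.15, and limma called none (4 at an unadjusted p under 0.05). Of 21 genes of the TGF beta and CCN list, 17 were lower with a median of −0.14, and limma called none (6 at an unadjusted p under 0.05). Of 27 NF-kB and cytokine genes limma called none (6 at an unadjusted p under 0.05). The largest difference there was that of Cxcl2, a neutrophil chemokine, which had 8.09, 7.97 and 9.58 in APAP against 7.21, 7.07 and 8.19 in control, groups that overlapped. The difference of 1.06 ± 0.37 (SE) was not called by limma (adjusted p = 0.152), and was called with the replicate number as a block (adjusted p = 0.0281).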
